A study of Mus musculus with 2 samples.

Results

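Heat shock proteins and the DNAJ co-chaperones are the genes described here. They were chosen by symbol: the HSPA, HSPB, HSPD, HSPE and HSPH families, the HSP90 genes, and the numbered members of the DNAJA, DNAJB and DNAJC families. The rule found 70 of the 55450 annotated genes held by both kinds of table, and all 70 are protein-coding. They comprise 27 heat shock protein genes and 43 DNAJ genes. The source was nuclear RNA of bone marrow-derived macrophages from C57BL/6J mice, which had received 100 ng/ml Lipid A, the part of bacterial lipopolysaccharide that Toll-like receptor 4 senses, for 10 min. The description calls the fraction nucleoplasmic, while other label fields say nucleus or nuclear. Ribosomal RNA was depleted, and the total RNA was sequenced in 2 libraries of 1 group. Replicate 1 was made from 1 µg of RNA and replicate 2 from 500 ng. Both carry the same donor identifier and separate biosample identifiers, and the labels do not say whether the cultures came from separate animals, so the spread between them may be technical. No unstimulated cells were analysed here, so no level below measures a response to Lipid A. Levels are in TPM, relative transcript abundances in which counts are divided by length, and are given as mean ± SD with n = 2 where no library is named.

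HSP70 proteins, encoded by the HSPA genes, bind and release unfolded stretches of other proteins in a cycle driven by ATP. DNAJ proteins carry a J domain that speeds ATP hydrolysis by HSP70 and brings it clients, and nucleotide exchange factors such as Hsph1 reset the cycle. HSP90 proteins act later on kinases, receptors and other clients, while small heat shock proteins, encoded by HSPB genes, hold aggregating proteins without ATP. Some members are made at all times, some rise sharply when heat shock factor 1 is activated, and separate sets serve the endoplasmic reticulum and the mitochondrion.

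The libraries held 19130081 expected counts in replicate 1 and 11608680 in replicate 2 on the 55450 genes. All 10 macrophage markers, among them Csf1r and Adgre1, reached 1 TPM in each library, with a lowest mean of 29.8 TPM. They summed to 3732 and 2289 TPM in replicates 1 and 2. None of 4 T cell, 3 B cell and 4 fibroblast markers reached 1 TPM in both libraries. The summed level of any of these lists was at most 0.590 TPM. S100a8 alone of 4 neutrophil genes and Kdr alone of 4 endothelial genes did so. In bulk RNA, fewer cells that express a gene and less RNA per cell cannot be told apart.

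Most members were present. With a limit of 1 TPM in each library, 54 of 70 (77.1%) were detected, beside 46.1% of 21951 protein-coding genes and 23.6% of all annotated genes. The median member stood at 5.60 TPM, against 0.625 TPM for the median protein-coding gene, and 56 of 70 members lay above the latter. The DNAJ families were detected for 38 of 43 members and the heat shock protein families for 16 of 27. Dnajc12, named after its values were seen, reached 1 TPM in replicate 2 only (0.870 and 1.02 TPM). The other 15 stayed under 1 TPM in both. Levels were uneven: Hsp90b1, Hspa8 and Hspa5, the 3 members above 100 TPM, together held 43.4% of the members' TPM in replicate 1 and 33.1% in replicate 2.

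**Figure D1:**
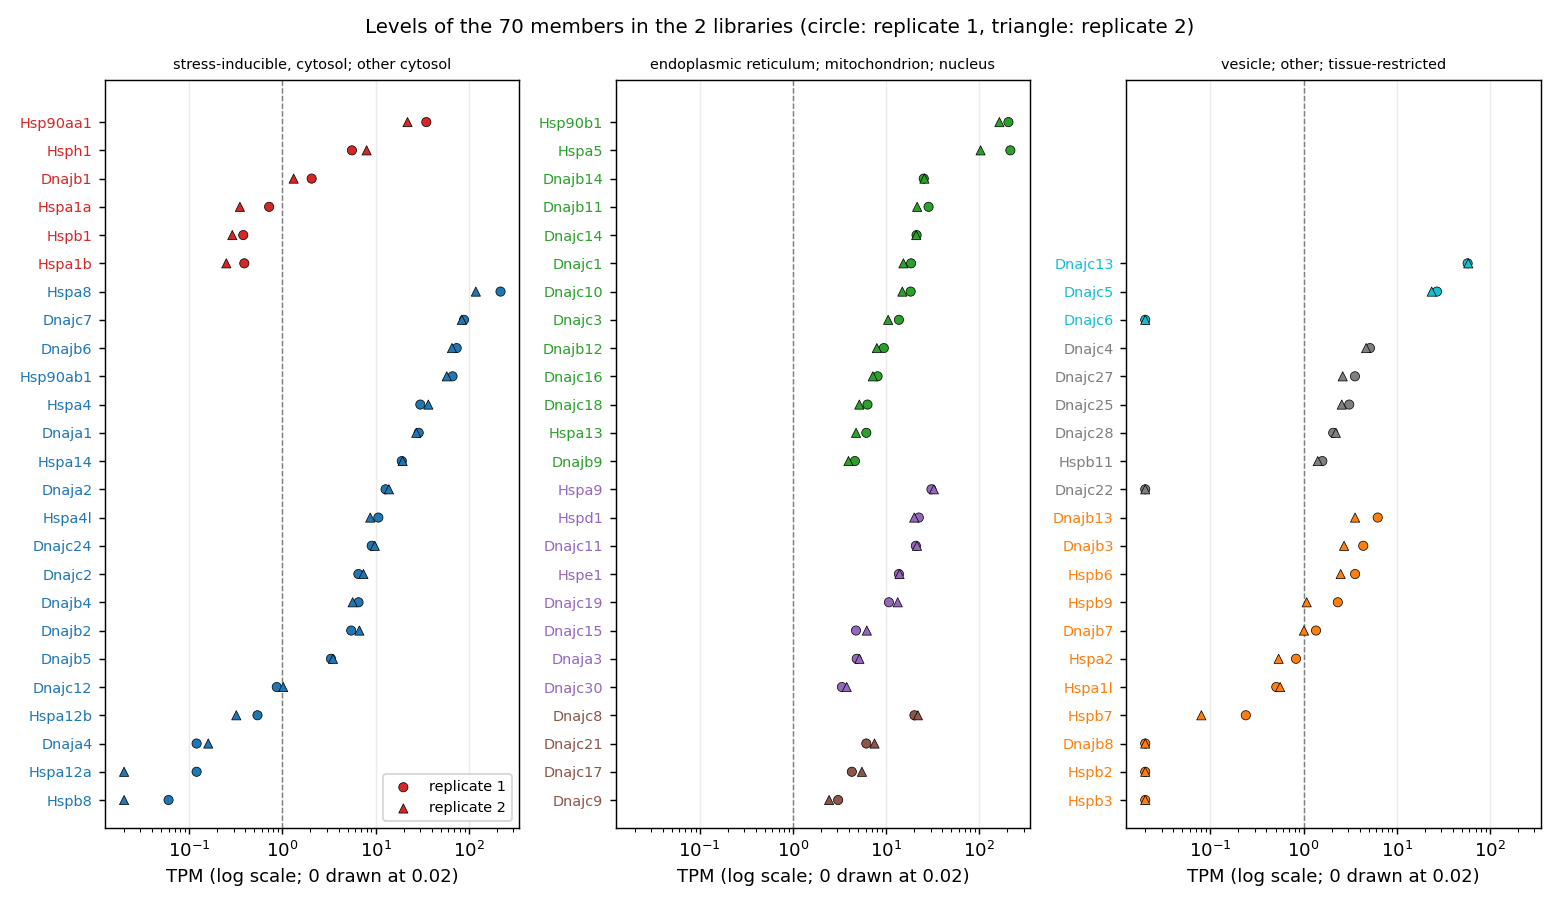
Level of each of the 70 members in TPM on a log axis, by class, with replicate 1 as circles and replicate 2 as triangles; the dashed line marks 1 TPM, and a level of 0 is drawn at 0.02. Hsp90b1, Hspa8 and Hspa5 stand highest, while Hspa1a, Hspa1b and Hspb1 lie left of the line in both libraries.

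Cytosolic members that are known for strong induction by heat ranged from under 1 TPM for Hspa1a, Hspa1b and Hspb1 to 28.5 TPM for Hsp90aa1 by mean level. This class has 6 genes (Hspa1a, Hspa1b, Hspb1, Hsph1, Hsp90aa1 and Dnajb1), of which 3 were detected. Hspa1a, the classical inducible HSP70 gene (chromosome 17, 34969190 to 34972156, minus strand, mm10), stood at 0.720 and 0.350 TPM in replicates 1 and 2. Those levels came from 45 and 14 expected counts. Its neighbour Hspa1b (chromosome 17, 34956436 to 34959238) stood at 0.390 and 0.250 TPM, from 22 and 9 counts. Both genes were under 1 TPM in each library, and the intervals that the authors deposited with the TPM stayed under 1 as well, reaching 0.926 TPM for Hspa1a and 0.587 TPM for Hspa1b in replicate 1.

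The split of reads between Hspa1a and Hspa1b is uncertain. Their reading frames are 1926 and 1929 bases long in GENCODE M21, and over the first 1800 bases they differ at 6 positions (99.7% identical). Of the stretches of 31 bases in the Hspa1a transcripts, 63.8% also occur in Hspa1b. The stretch below, shown because it holds 2 of the 6 differences, covers bases 1357 to 1416 of the frame, counted from its start codon on the coding strand; capitals mark the bases that differ, A1380G and A1416G, with Hspa1a given before Hspa1b.
Hspa1a: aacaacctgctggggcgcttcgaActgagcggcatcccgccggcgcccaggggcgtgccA
Hspa1b: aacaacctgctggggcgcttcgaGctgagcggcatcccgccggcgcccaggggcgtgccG
The summed counts of the pair do not depend on that split, and the summed TPM depends on it little, as the transcripts are 2967 and 2803 bases long. Both sums can depend on reads shared with further genes. Of the Hspa1a stretches, 70.1% occur in some other gene, Hspa1b included. The sum came to 1.11 and 0.600 TPM. Hspa8, the constitutive cytosolic HSP70 gene, exceeded this sum 197-fold in replicate 1 and 198-fold in replicate 2. By the second quantification, a transcript table made separately from the same reads, the ratios were 193 and 185.

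The rest of the inducible class spanned a wide range. Hspb1, a small heat shock protein, stood at 0.380 and 0.290 TPM in replicates 1 and 2, from 6 and 3 counts, and 52.3% of its 31-base stretches also occur in the pseudogene Hsp25-ps1. Dnajb1, the J-domain partner of inducible HSP70, stood at 2.06 and 1.32 TPM. Hsph1, a nucleotide exchange factor for HSP70, stood at 5.57 and 8.01 TPM. Hsp90aa1, the inducible cytosolic HSP90 gene (chromosome 12, 110690605 to 110702728), was the highest of the class at 35.0 and 22.0 TPM, and 46.7% of its stretches are shared with Gm12346. Its constitutive counterpart Hsp90ab1 stood at 66.9 and 58.0 TPM, 1.91 and 2.64 times the level of Hsp90aa1.

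Among the 5 other cytosolic genes that heat can also raise, levels ran from Hspb8 (2 counts in replicate 1 and 0 in replicate 2) to Dnaja1, a J-domain partner of HSP70, at 29.0 and 27.3 TPM. Hspa4l stood at 10.7 and 8.76 TPM. Dnajb4 (6.56 and 5.67 TPM) and Dnaja4 (0.120 and 0.160 TPM) were named after their values were seen. Low levels were thus not shared by every gene of either inducible group.

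Upstream sequence was compared with the heat shock element, the site that heat shock factors bind. The element was searched as GAANNTTCNNGAA or its reverse complement TTCNNGAANNTTC in the 250 bases before each RefSeq transcription start (GRCm38.p6), a search that covers both strands and lets matches overlap. Promoters matched 57 of the 70 members by symbol. Hsp90aa1, Hspa8 and Hsp90ab1 were among the 13 without a promoter and were not searched. An exact match was found in 3 of 57 members (5.26%), beside 0.514% of all 27025 symbols with a promoter. With at most 1 of the 9 fixed letters different, 14 of 57 members (24.6%) had a match, beside 6.86% of all symbols. These included 4 of the 5 matched genes of the inducible class, Dnajb1 being the one without. They also included 4 of 15 other cytosolic, 2 of 5 mitochondrial, 1 of 4 nuclear and 2 of 10 tissue-restricted members, and 1 of 5 of other function. None of 11 matched members of the endoplasmic reticulum had one, which is near the share of all symbols and is no result about them. The windows are shown for the exact matches and for the low inducible genes, on the strand of each gene, with the bases of the matching windows, spacer letters included, in capitals.
Hspd1 (exact, chr1:55088053-55088082, minus strand): ggggccTTCCGGAAGGTTCTAGAAcggacc
Hspe1 (exact, chr1:55088053-55088082, plus strand): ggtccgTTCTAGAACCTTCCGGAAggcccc
Dnajb6 (exact, chr5:29735846-29735870, plus strand): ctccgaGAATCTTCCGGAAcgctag
Hspa1a (1 letter off, chr17:34972247-34972276, minus strand): agacgcGAAACTGCTGGAAGATTCctggcc
Hspa1b (1 letter off, chr17:34959329-34959358, minus strand): agacgcGAAACTGCTGGAAGATTCctggcc
Hspb1 (1 letter off, chr5:135887796-135887820, plus strand): acaagaGAAGTTTCCAGATgggggc
The windows of Hspa1a and Hspa1b are identical. The Dnajb6 window lies before RefSeq starts but inside the gene as GENCODE M21 places it, beginning at 29735688. Hspd1 and Hspe1, which encode the partners HSP60 and HSP10, are divergent neighbours and share one site, read from opposite strands, which lies in an untranslated exon of Hspd1 in GENCODE M21. Genes with such a match stood at very different levels, from 0 counts for Hspb3 to 74.1 and 66.0 TPM for Dnajb6. A match is a description of these letters and not evidence that a factor bound them.

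Constitutive members of the cytosol were among the highest. Hspa8 (chromosome 9, 40800984 to 40810087, plus strand) stood at 219 and 119 TPM, from 7133 and 2483 counts. It ranked 149 among protein-coding genes by mean level. The transcripts of Hspa8 share 44.8% of their 31-base stretches with 20 other genes, 14 of them pseudogenes, so part of its level depends on how the authors' program placed shared reads. Dnajc7, a co-chaperone that binds both HSP70 and HSP90, followed at 88.9 and 84.2 TPM. Dnajb6, which keeps aggregation-prone proteins soluble, stood at 74.1 and 66.0 TPM. Each of these genes was at least 66.0 TPM in both libraries, and the libraries differed most for Hspa8.

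Further cytosolic members were lower. Hspa4, an exchange factor of the HSP110 group, stood at 30.2 and 36.8 TPM, 5.43 and 4.59 times the level of its inducible relative Hsph1. Hspa14, which works at the ribosome, stood at 19.1 and 19.5 TPM, and Dnaja2, a J-domain partner of Hspa8, at 12.8 and 13.9 TPM. Hspa12a (0.120 and 0 TPM) and Hspa12b (0.540 and 0.320 TPM), distant relatives of HSP70, were at the low end. Hspa12b was 1 of the members on which the tables disagreed, with 3.87 and 3.13 TPM by the second quantification.

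All 13 members of the endoplasmic reticulum were detected in both libraries. Hsp90b1 (GRP94), the HSP90 of this organelle (chromosome 10, 86690209 to 86705509, minus strand), had the highest mean of all members at 185 ± 28.5 TPM, from 205 and 164 TPM. Hspa5 (BiP), its HSP70 (chromosome 2, 34771970 to 34777547, plus strand), stood at 215 and 103 TPM, from 10097 and 3387 counts. Hspa5 was nearly free of shared sequence, with 0.0467% of its 31-base stretches found in another gene. The order of Hspa8 and Hspa5 is not settled, since their ratio was 1.02 and 1.15 in the libraries while each differed more than that between libraries. Nor is the lead of Hsp90b1: Hspa8 (219 TPM) and Hspa5 stood above it in replicate 1, and both stood below it in replicate 2.

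The J-domain proteins of the organelle were well below BiP. Dnajb14, anchored in the membrane of the organelle, stood at 25.3 and 25.7 TPM and Dnajb11, a soluble BiP partner that binds clients directly, at 28.5 and 21.5 TPM. Dnajc14 (21.1 ± 0.163 TPM), Dnajc1 (18.5 and 15.3 TPM) and the disulfide reductase Dnajc10 (18.3 and 14.9 TPM) followed. Hspa13, an HSP70 relative of microsomes, stood at 6.12 and 4.75 TPM, and Dnajb9, which holds the stress sensor IRE1 inactive together with BiP, was the lowest at 4.62 and 3.94 TPM. Dnajb14 and Dnajc14 differed little between libraries, whereas Hspa5 was more than 2-fold apart on the TPM scale.

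All 8 mitochondrial members were detected, at lower and closer levels. Hspa9 (mortalin), the HSP70 that pulls proteins through the inner membrane, stood at 30.6 and 32.5 TPM. The chaperonin genes Hspd1 and Hspe1, whose products form the folding chamber and its lid, stood at 22.4 and 20.0 TPM and at 13.7 and 13.9 TPM, with a ratio of 1.64 in replicate 1 and 1.44 in replicate 2. Of the transcripts' 31-base stretches, 53.1% for Hspd1 and 30.5% for Hspe1 also occur in other genes, mostly pseudogenes. Dnajc11, found with the cristae organising complex, stood at 20.8 and 21.4 TPM. Dnajc19, a J protein of the import motor, stood at 10.7 and 13.3 TPM, its relative Dnajc15 at 4.74 and 6.20 TPM and Dnaja3, the J-domain partner of mortalin in the matrix, at 4.83 and 5.16 TPM. Dnajc30 was lowest at 3.35 and 3.77 TPM, and 24.9% of its stretches are shared with Bud23 on the opposite strand.

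J proteins of the nucleus were not prominent in this nuclear RNA. Their RNA need not be where their protein works, and all 4 were detected. Dnajc8, a spliceosome-associated protein, stood at 20.1 and 21.9 TPM and Dnajc21, which acts in ribosome maturation, at 6.12 and 7.50 TPM. Dnajc17 stood at 4.28 and 5.49 TPM, and Dnajc9, a chaperone of newly made histones, at 3.05 and 2.44 TPM. Of the vesicle members, Dnajc13, an endosomal J protein, stood at 57.6 and 58.5 TPM and Dnajc5, the cysteine string protein of secretory vesicles, at 27.0 and 23.7 TPM. Dnajc6, the neuronal clathrin uncoating factor auxilin, had 0 counts.

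Members known from testis, muscle or heart were mostly low, with 5 of 11 detected. Dnajb13, an axonemal protein, stood at 6.25 and 3.57 TPM. It overlaps Ucp2 on the opposite strand over 305 bases, and Ucp2 stood at 108 and 72.8 TPM; how strand was handled is not stated in the sources used here. Dnajb3 (4.37 and 2.72 TPM) lies wholly opposite the Ugt1a cluster, where Ugt1a7c stood at 35.8 and 25.1 TPM, and Dnajb7 (1.36 and 1.01 TPM) lies opposite Xpnpep3. Of the 31-base stretches of Dnajb13, 9.97% are shared with annotated Ucp2 transcripts, and those of Dnajb3 and Dnajb7 are shared with no other gene's transcripts. Reads from unspliced RNA of the partners were not counted apart. Hspb6 stood at 3.57 and 2.50 TPM and Hspb9 at 2.33 and 1.08 TPM, the latter from 24 and 8 counts. Hspa2 (0.830 and 0.540 TPM), Hspa1l (0.510 and 0.560 TPM) and Hspb7 (0.240 and 0.0800 TPM) were under 1 TPM, and 71.7% of the stretches of Hspa1l are shared with its antisense gene Gm10501.

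The 5 members with 0 counts in both libraries were Dnajc6, Dnajc22, Dnajb8, Hspb2 and Hspb3. By counting error alone, a count of 0 allows up to 3 counts. Here that is from 0.0411 TPM (Dnajc6) to 0.307 TPM (Hspb2) in replicate 1 and from 0.0636 to 0.462 TPM in replicate 2. The intervals that the authors deposited ran higher for most of these genes. They reached 1.03 and 1.47 TPM for Dnajc6 and 0.840 and 1.18 TPM for Dnajc22, and at most 0.736 TPM for the others. Levels near 1 TPM are thus not excluded for Dnajc6 and Dnajc22. Hspa12a and Hspb8 had 0 counts in replicate 2 only. Among members of other functions, Dnajc4 (5.16 and 4.69 TPM), Dnajc27, Dnajc25 and Dnajc28 were detected at means from 2.15 to 4.93 TPM, and Hspb11, an intraflagellar transport protein despite its name, stood at 1.59 and 1.42 TPM.

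Summed over classes, the 6 inducible genes held 44.2 and 32.2 TPM, or 3.0% and 2.76% of the members' TPM. Hspa8 and Hsp90ab1, the constitutive pair, held 286 and 177 TPM. The ratio of the inducible class to that pair was 0.155 in replicate 1 and 0.182 in replicate 2 (0.168 ± 0.0192). Hsp90aa1 carried most of the numerator: without it the ratio was 0.0448. The members of the endoplasmic reticulum held 39.4% and 34.8% of the members' TPM, beside 39.6% and 40.1% for the 19 other cytosolic members, and the mitochondrial members 7.55% and 9.96%. The organelle share, both organelles together, was thus 45.8% on average, and the endoplasmic reticulum exceeded the mitochondrion 5.22-fold in replicate 1 and 3.49-fold in replicate 2. The order of the endoplasmic reticulum and the other cytosolic members depended on the measure. In expected counts the former had 34139 and 16694 against 21348 and 11070. By the second quantification it held 32.4% and 29.7% of the members' TPM against 44.3% and 43.0%. The ratio of Hspa5 to its mitochondrial counterpart Hspa9 was 7.03 and 3.17, so it moved with Hspa5.

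**Figure D2:**
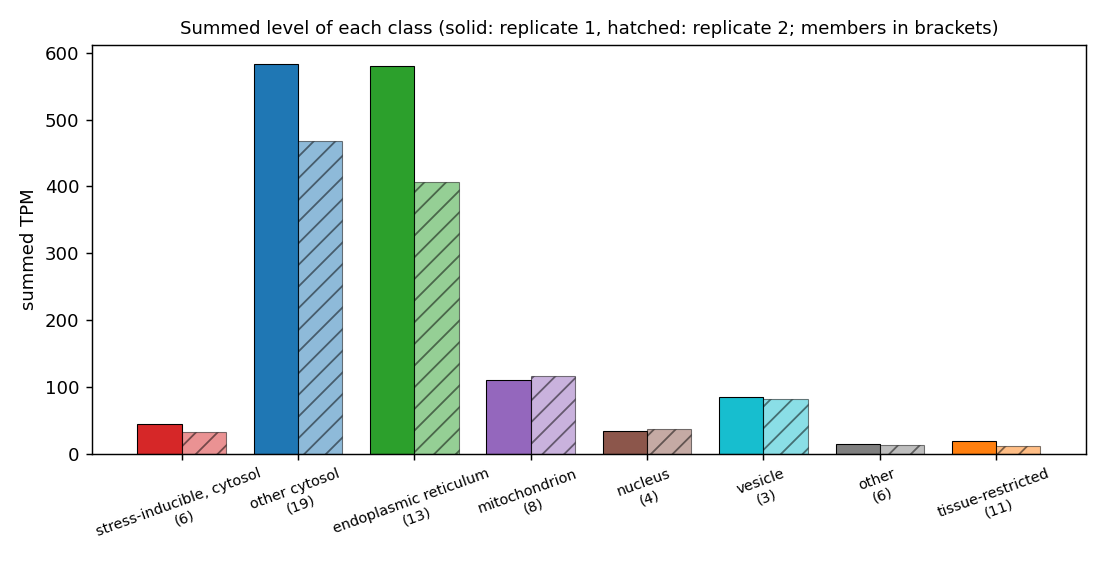
Summed TPM of each class of members, with a solid bar for replicate 1 and a hatched bar for replicate 2 and the number of members in brackets. The 6 inducible genes sum to 44.2 and 32.2 TPM, below the endoplasmic reticulum at 580 and 406 TPM, and the mitochondrial bars (111 and 116 TPM) differ little.

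The libraries were next set against each other on expected counts scaled by the TMM method, as log2 of scaled counts plus 1, for members with a mean of at least 50 counts. The comparison shows which members carried the spread between replicates, and with 1 library on each side it has no test. The 51 members that qualified had a median difference of 0.00 (replicate 1 minus replicate 2), with 25 higher and 26 lower, and all 11652 genes that qualified had a median of 0.00 with 49.8% higher. None of the 51 members was at least 2-fold higher or lower in replicate 1. The background was 1.65% of genes higher and 0.446% lower, so a count of 0 among 51 is near it and is no result about the members.

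Hspa5 and Hspa8, the highest HSP70 genes, were the members farthest apart. The difference was 0.83 for Hspa5, with a 95% counting interval of 0.78 to 0.89, and 0.78 for Hspa8, with an interval of 0.71 to 0.84. Both were higher in replicate 1, by 1.78-fold and 1.71-fold. Over the other scalings, Hspa5 ran from 0.80 to 1.05 and Hspa8 from 0.73 to 0.87. Hsp90b1, which had more counts than either, stood at 0.17 (0.13 to 0.22) and Hsp90ab1 at 0.12. These intervals are exact binomial (Clopper-Pearson) ones and take in counting error alone; amplified reads without molecular tags are not separate molecules.

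Among the remaining members, the tissue-restricted Dnajb13 (0.68) and Dnajb3 (0.54), Dnajb1 (0.52), Dnajc10 (0.32) and Dnajc25 (0.31) were the DNAJ genes highest in replicate 1. For Dnajb13 the overlapping Ucp2 was also higher in replicate 1, and its part in the difference was not tested. The DNAJ genes lowest in replicate 1 were Dnajc19 (-0.56), Dnajc17 (-0.53), Dnajc21 (-0.34), Dnajc30 (-0.29) and Dnajc2 (-0.25). Counting intervals lay above 0 for 13 of the 51 members, below 0 for 10 and across 0 for 28. Such intervals were not computed over all genes, so these counts are no result about the members. Of the DNAJ genes just named, Dnajb3 (-0.05 to 1.18), Dnajc25 (-0.07 to 0.71) and Dnajc30 (-0.73 to 0.14) lay across 0. The interval of Dnajc17 (-1.07 to 0.00) reached 0 to 2 decimals. The scale decided the direction of some members: from scaled counts to log2(TPM + 1), 2 of the 51 went from higher to lower in replicate 1 and 7 from lower to higher. Hsph1 moved most among them, from 0.05 to -0.46, and Hspa4l (-0.05 and 0.27), Dnaja1 (-0.11 and 0.09) and Dnajc7 (-0.11 and 0.08) turned the other way. All genes moved with the scale too. On scaled counts 5806 of 11652 genes and 25 of 51 members were higher in replicate 1. On log2(TPM + 1) these were 7353 of 11649 genes and 30 of 51 members. Turns of single genes were not counted over all genes, so the number among members is no result about them.

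Classes differed in how many members lay on each side. Of the 13 genes of the endoplasmic reticulum 10 were higher in replicate 1, with a median of 0.17, and the count was 9 to 12 under the other scalings and filters. All 8 mitochondrial genes were lower, with a median of -0.19. The count was 6 to 8 under the other scalings and filters, and Hspd1 among the 8 stood at 0.00 to 2 decimals. Of these 8, only Hspa9, Dnajc11 and Dnajc19 had counting intervals below 0. Those of Hspd1, Hspe1, Dnajc15, Dnaja3 and Dnajc30 lay across 0. Some genes of the endoplasmic reticulum, such as Dnajc14, Dnajc1 and Dnajb9, had intervals across 0 as well. Nuclear members had a median of -0.28 with 3 of 4 lower. The median of all genes was 0.00 on TMM-scaled counts and 0.09 on log2(TPM + 1). Of all genes, 5806 of 11652 were higher in replicate 1 on TMM-scaled counts. That number was 6212 of 11652 on library totals and 7353 of 11649 on log2(TPM + 1). The endoplasmic reticulum count of 12 came from library totals and log2(TPM + 1), where more of all genes were higher too. RNA input and depth moved with the libraries, at 1 µg and 19130081 counts against 500 ng and 11608680 counts, and the summed macrophage markers were higher in replicate 1; their part in these differences was not tested.

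**Figure D3:**
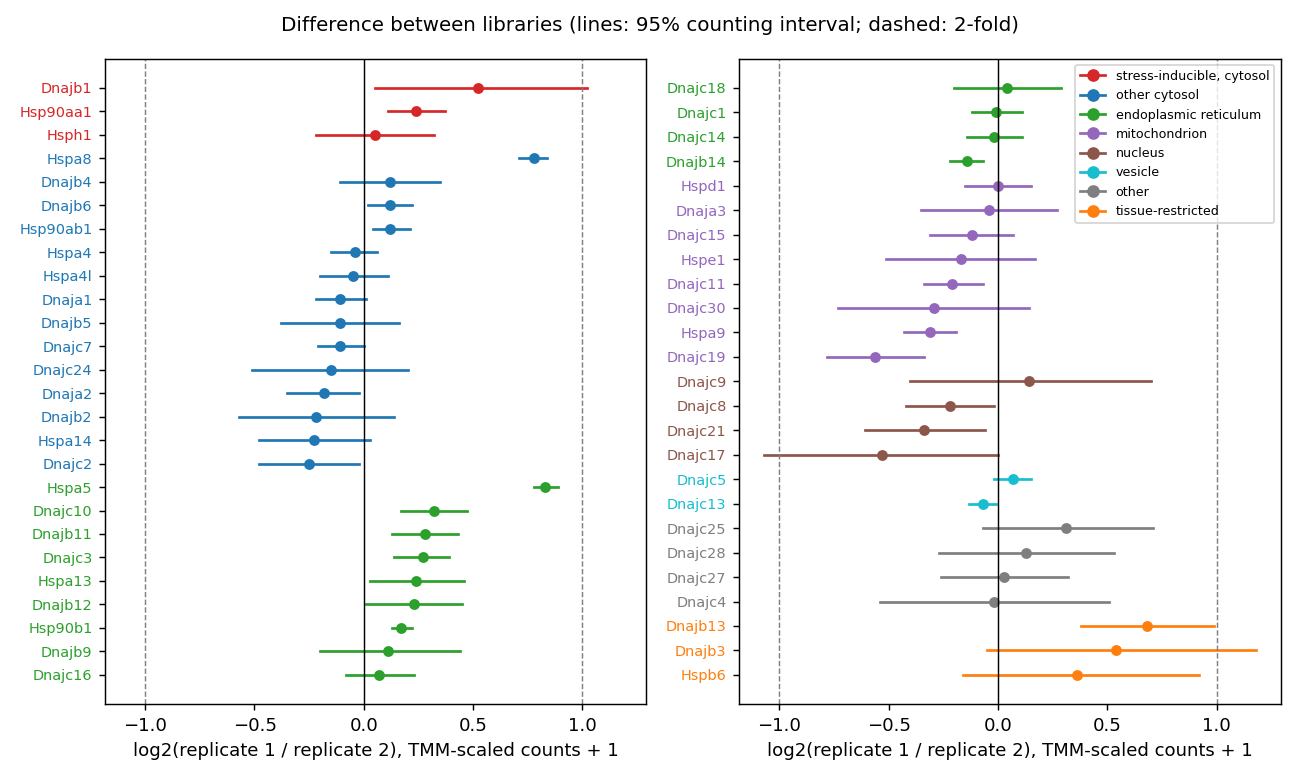
Difference between the libraries for the 51 members with a mean of at least 50 counts, as log2 of replicate 1 over replicate 2 on TMM-scaled counts plus 1, coloured by class; lines are 95% counting intervals and dashed lines mark 2-fold. Hspa5 (0.83) and Hspa8 (0.78) lie farthest to the right with short lines, and the mitochondrial members lie at or left of 0, where 1 or 2 of the 8 turn under other scalings.

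Transcript models were examined because nuclear RNA can hold unspliced and untranslated forms. The 70 members have 184 protein-coding, 82 retained intron, 56 processed transcript and 26 nonsense mediated decay (NMD) models, the last being models with an early stop codon that marks RNA for decay. Protein-coding models held 69.3% of the members' transcript TPM in replicate 1 and 68.6% in replicate 2, beside 72.9% and 71.9% over all protein-coding genes. Retained intron models held 14.7% and 16.5% (15.6 ± 1.32%), beside 19.6% and 19.9%. Processed transcript models, which have no open reading frame assigned, held 12.6% and 13.0%, beside 5.12% and 5.42%. That share rested on 2 genes, Dnajc7 and Hspa8, without which it was 4.76% and 5.67%. Many of these models are short, so in expected counts retained introns were 7.88% and 8.97% of the members' total, beside 14.9% and 15.6% over all protein-coding genes, and processed transcripts 4.34% and 4.89%, beside 2.34% and 2.57%.

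Single members departed widely from these shares. Of the 54 detected members, 44 have a model that is not protein-coding, beside 82.5% of the 10118 detected protein-coding genes. By the mean of the libraries 7 members had under 50% of their TPM on coding models, beside 25.8% of those genes, and the number was 7 in each library taken alone, though Hsph1 counted in replicate 2 and Hspb6 (26.9% and 78.4% coding) in replicate 1. In Dnajc7, coding models held 19.1% and 26.1% of TPM but 46.3% and 52.3% of counts, and its processed transcript model Dnajc7-203 (19.4 and 21.3 TPM) was above the coding Dnajc7-201 (17 and 18.1 TPM) in both libraries, while Dnajc7-204 (18.5 and 11.2 TPM) was above it in replicate 1 and below it in replicate 2. In Hspa8, the processed transcript Hspa8-203, of 598 bases, stood at 58.6 and 27.1 TPM, between the coding models Hspa8-202 (77.1 and 45.0 TPM) and Hspa8-201 (44.4 and 20.1 TPM). Hsp90b1, by contrast, had 90.2% and 90.8% on coding models, and Hspd1 and Dnajb11 have no other kind of model.

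The highest retained intron models came from Hspa4 and Hspa8. Hspa4-202 stood at 7.82 and 15.8 TPM, and Hspa8-208 at 14.4 and 7.77 TPM. Hspa8 also hosts the small nucleolar RNA genes Snord14c, Snord14d and Snord14e, which overlap it over 86 to 90 bases and were listed at 0 TPM. The other microRNA, small nucleolar and small nuclear RNA genes that overlap members were listed at 0 TPM as well. Whether genes this short could be counted was not tested, so these zeros do not show that the RNAs were absent. Dnajb14-202, at 6.70 and 7.77 TPM, held 26.5% and 30.2% of its gene. In Hspa14, retained intron models held 74.2% and 72.7% of TPM, though coding models held 54.6% and 54.5% of counts, and in Dnajc11 coding models held 28.6% and 27.6% of TPM and 36.2% and 33.5% of counts. Hsp90aa1-204, of 325 bases, stood at 8.45 TPM in replicate 1 from 20 counts and at 0 in replicate 2. In Hsph1, Hsph1-208 stood at 0.420 and 4.14 TPM, from 5 and 32 counts, and the coding share of the gene was 57.8% in replicate 1 and 25.9% in replicate 2.

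NMD models were led by Hspa5-204, of 477 bases, at 34.4 and 8.08 TPM, from 193 and 31 counts. It held 16.0% and 7.83% of the TPM of Hspa5. Its library difference was in the same direction as that of the coding Hspa5-202, at 145 and 71.3 TPM. Dnajc5-204 (8.59 and 5.33 TPM) held 31.8% and 22.5% of Dnajc5, and Dnajc13-202 stood at 2.31 and 3.66 TPM. Those of Dnajc8 and Dnajc15 were each at most 2.00 TPM. Dnajc5-204, of 3728 bases, rested on 676 and 271 counts, and Dnajc13-202, of 1222 bases, on 52 and 53. Intronic reads were not counted apart.

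**Figure D4:**
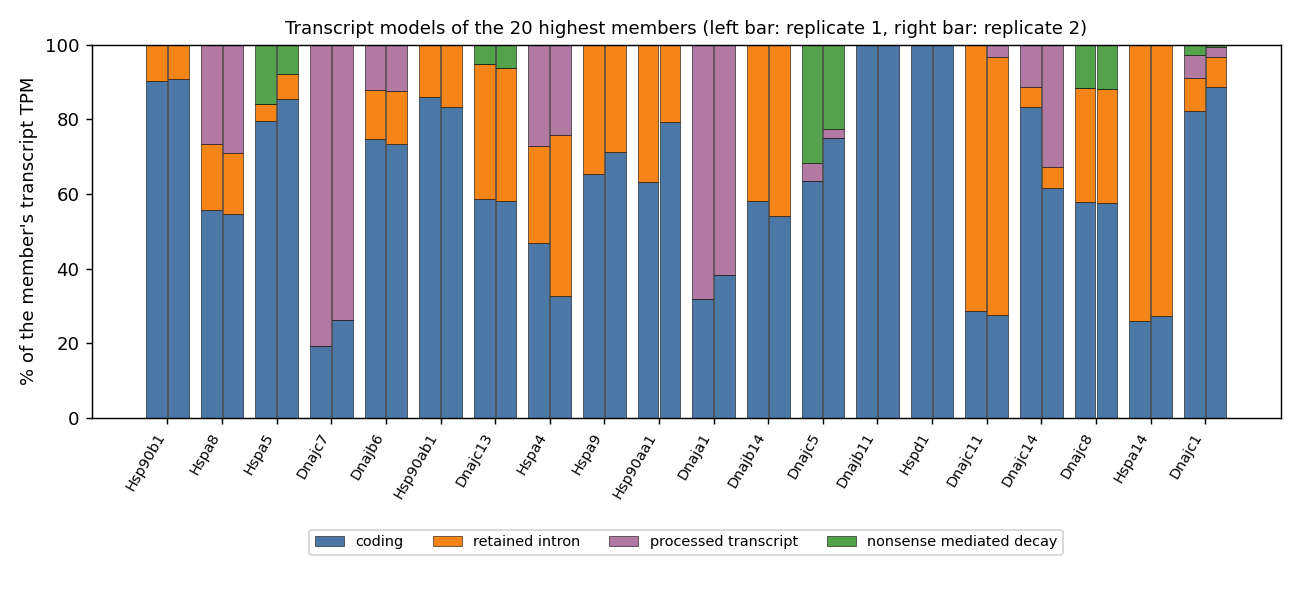
Share of transcript TPM on coding, retained intron, processed transcript and NMD models for the 20 highest members, with replicate 1 as the left bar and replicate 2 as the right. Dnajc7 shows 19.1% and 26.1% coding and Hspa14 mostly retained intron, while Dnajb11 and Hspd1 are wholly coding.

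The gene tables were compared with the second quantification, summed per gene. In both the TPM are relative to all RNA, and protein-coding genes held 30.9% and 29.4% of TPM in the gene tables but 18.0% and 24.9% in the second. Among members with a mean of at least 10 TPM, 22 of 25 were higher in the gene tables, with a median log2 difference of 0.49, and the 5808 genes at that level had a median of 0.52. Hspa8 was the 1 member over 2-fold apart (169 against 78.4 TPM on average), beside 6.04% of those 5808 genes. In replicate 1 alone it was joined by Hsp90b1, Hspa5, Hspd1, Dnajb11 and Dnajc3, for 6 of 26 members beside 29.1% of 5956 genes, a share near that background. In replicate 2 alone no member of 25 passed, beside 3.71% of 5582 genes.

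With TPM rescaled to protein-coding genes in each table, Hspa8 fell inside 2-fold (557 against 382) and Dnajb6 became the 1 member outside it, beside 5.03% of genes. Dnajb6 stood at 232 rescaled TPM in the gene tables and 588 in the second quantification. In the original unit it was 121 and 125 TPM there, the highest of all members in replicate 1 and in replicate 2. Of this, 2 short models that the first transcript tables list at 0, Dnajb6-211 of 218 bases (35.3 and 30.8 TPM) and Dnajb6-204 of 123 bases (32.3 and 20.2 TPM), held a large part. Of the 31-base stretches of Dnajb6, 22.7% occur in other genes. Among low members, Dnajc12 stood at 2.16 and 3.61 TPM and Hspb11 at 1.91 and 4.05 TPM by the second quantification, above their levels in the gene tables.

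**Figure D5:**
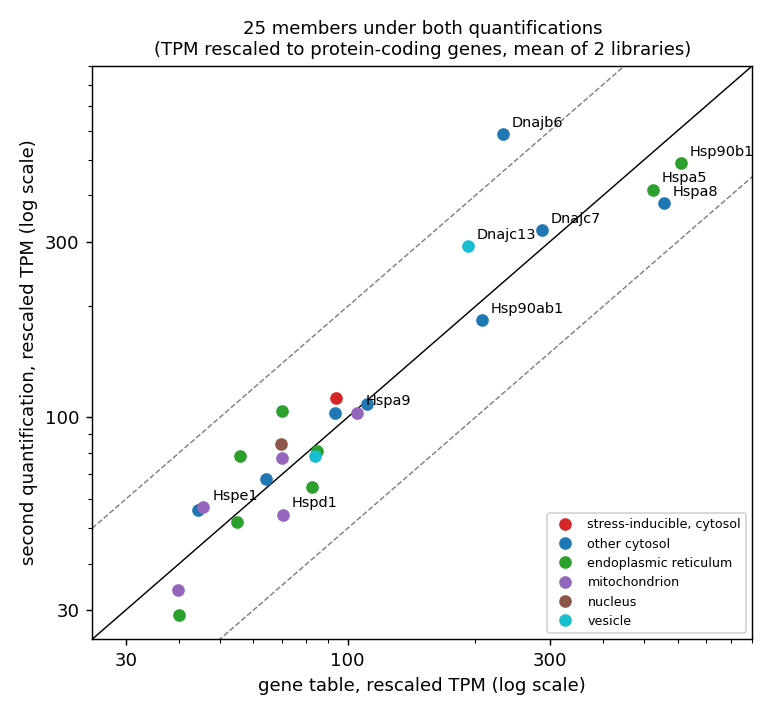
Mean level of the 25 members with at least 10 TPM in the gene tables (x axis) and in the second quantification (y axis), both rescaled to protein-coding genes and on log axes; the solid line is equality and dashed lines are 2-fold. Dnajb6 (232 against 588) lies outside the upper dashed line, and Hspa8 (557 against 382) lies below equality inside the lower one.

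Other genes of the chaperone network were described from 5 lists of 62 genes, all matched. Of the heat shock factor genes and their binding protein 4 of 5 were detected: Hsbp1, which binds the factors (19.2 ± 1.92 TPM), Hsf1, the master factor of the heat response (16.5 ± 0.509 TPM), Hsf2 (8.30 ± 0.212 TPM) and Hsf4, while Hsf5 was at 0.110 TPM. Hsf1 therefore stood above Hspa1a, Hspa1b, Hspb1, Hsph1 and Dnajb1 in both libraries. Of 13 HSP70 cofactors 12 were detected, led by Bag6 (67.4 ± 3.19 TPM), the ubiquitin ligase gene Stub1 (31.6 ± 0.559 TPM) and Hyou1, the exchange factor of BiP (25.7 ± 5.63 TPM), with Bag2 lowest (0.330 TPM). Of 14 HSP90 cofactors 13 were detected, led by Cdc37l1 (50.2 ± 1.05 TPM), the ATPase activator Ahsa1 (35.4 ± 4.01 TPM) and Ppp5c (33.2 ± 7.15 TPM), with Fkbp5 lowest (1.40 TPM).

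The cytosolic chaperonin TRiC and its partner prefoldin were detected for all 14 members, with a median of 15.0 TPM, led by Cct4 (27.4 ± 4.39 TPM), Cct6a (26.2 ± 2.60 TPM) and Tcp1 (24.9 ± 0.120 TPM). All 16 genes of folding and stress signalling in the endoplasmic reticulum were detected, with a median of 32.9 TPM, led by the lectin chaperones Calr (224 ± 15.2 TPM) and Canx (153 ± 2.69 TPM) and the disulfide isomerase Pdia3 (58.8 ± 13.2 TPM), and Creld2 was lowest at 6.49 TPM. Calr was thus above Hsp90b1 and Hspa5 by mean level. Between the libraries, 14 of these 16 were higher in replicate 1 (median 0.15), as were 11 of 12 HSP70 cofactors (median 0.15) and 10 of 13 chaperonin and prefoldin genes (median 0.22), while HSP90 cofactors were 5 higher and 9 lower (median -0.03; 7 and 7 when scaled by library totals). Over all 11652 genes that qualified, 49.8% were higher in replicate 1. Hsf5, Bag2 and 1 prefoldin gene averaged under 50 counts and were left out. Of the other listed genes, Pfdn1 alone was at least 2-fold higher in replicate 1, at 1.10 (4.59 and 1.93 TPM). None was at least 2-fold lower. The background was 1.65% of genes higher and 0.446% lower, so these 2-fold counts are near it and are no result about the lists.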

How the data were processed

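Levels were taken from tables that the authors deposited for each library. Per the text files deposited with them, the reads were aligned to the mm10 transcriptome under GENCODE M21; neither the programs nor the strand setting are stated in the sources used here. The authors deposited expected counts, which can be fractional and were rounded here before scaling, and TPM, which sums over every entry of its table. The limits of each TPM interval that the authors deposited were treated as a signal, their confidence level is not stated, and they do not always include the TPM. The second quantification, deposited as a transcript table, was summed per gene. Entries naming no gene, and 86 scaffold genes that the second table does not hold, were left out; they held 1.30% and 0.522% of counts.

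Members were joined by gene identifier. Scaling used TMM in edgeR 4.0.16 (R 4.3.3), with DESeq2 1.42.0 size factors as an alternative, and the script was tested on simulated data. With 2 libraries of 1 group no p-value was computed. Shared sequence was counted as 31-base stretches of GENCODE M21 transcripts; promoters are from RefSeq. Every heat shock protein gene could be named; DNAJ genes were named as the highest and lowest of their class, at 0 counts, or farthest apart between libraries, quantifications or among retained intron and NMD models, and listed network genes as the 3 highest and the lowest of each list. The members, classes, lists and this rule were chosen with earlier results of these data known. Dnajc12, Dnaja4, Dnajb4 and Dnajc3 fall outside it and were named after their values were seen. Alternatives comprised detection limits, pseudocounts, count filters, scalings, units, the second quantification and each library alone. Python 3.11.15 with numpy 2.4.6, pandas 2.3.3, scipy 1.17.1 was used.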

Additional observations from a re-analysis of the deposited data

How the results depend on the processing

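Across 9 results and 53 alternative settings, 36 values stayed close to those reported (counts within 1.5 times, other values within 1 SD of the libraries, or 0.1 for the median difference) and 17 moved. The 54 detected members became 35 at 5 TPM. The ratio of inducible to constitutive genes (0.168) was 0.219 in expected counts, 0.253 by the second quantification, 0.368 with the wider inducible list, 0.0734 over all constitutive cytosolic and nuclear members and 0.0448 without Hsp90aa1, the last chosen after seeing the data; it stayed under 1 in each. The organelle share (45.8%) was 52.3% in expected counts and 39.5% by the second quantification. The median difference of members was 0.15 on log2(TPM + 1), where that of all genes was 0.09. Members at least 2-fold higher in replicate 1 numbered 1 on that scale (Hspa5) and 2 with no filter on low counts (Hspb7 and Hspb8, from at most 14 counts), instead of 0. Members over 2-fold apart between quantifications numbered 0 to 6 with 1 library left out, against 1. The retained intron share (15.6%) was 8.42% in expected counts and 20.6% by the second quantification. The processed transcript share (12.8%), examined after seeing the data, was 8.24% without Dnajc7 and 5.21% without Hspa8 as well. The causes of these shifts were not tested, except that the settings named for genes left out differ by those genes. Leaving out a library gives no value for differences between libraries. No paired analysis was possible because there is 1 group. Members under about 50 counts, Hspa1a, Hspa1b and Hspb1 among them, are limited by depth.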
